A study of Mus musculus with 4 samples.

Results

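Alas2, Bpgm and Slc4a1 are genes of red blood cells whose transcripts were measured in whole hearts of wild-type and heterozygous mice. Their probe sets were taken by gene symbol from the platform annotation, which gave 3 probe sets for 3 genes of 8251 named genes, 1 probe set each. All 3 were bright enough to be tested. The study hybridised total RNA of whole heart to 4 one-colour oligonucleotide arrays of 12488 probe sets, 2 of wild-type and 2 of heterozygous mice. Every array held RNA of a pool of 5 hearts from adult males of 8 to 16 weeks on a 129/Black Swiss background, and the gene in which the second group was heterozygous is not reported here. The labels do not say that the pools came from separate animals, so p-values measure only the spread between these 4 samples. A pool hides the spread between single hearts.

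Red cells of mammals lose their nucleus as they mature, and young red cells still carry RNA for haemoglobin and haem. Alas2 encodes the red cell form of the enzyme that starts haem synthesis, Bpgm makes the bisphosphoglycerate that lowers the oxygen affinity of haemoglobin, and Slc4a1 encodes the chloride-bicarbonate exchanger that anchors the red cell skeleton to the membrane. A heart that is not flushed holds blood, so these transcripts can report retained blood, although Bpgm is also made at lower levels in other tissues. In RNA of whole tissue, more red cells and more RNA per red cell cannot be told apart.

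Sequences just upstream of the genes are shown because GATA1 and KLF1, regulators of red cell genes, bind short motifs of the kinds searched for here. Of the 3 genes, 2 had a promoter entry in RefSeq's table (GRCm38.p6), and that of the alpha-globin gene Hba-a1 is given for comparison. The 250 bases before the start of transcription were searched on both strands for AGATAA and for TGATAA (forms of the GATA motif), and for CCNCNCCC, a form of the motif that KLF1 binds. Capitals mark the matches, which may overlap. The Alas2 window is chrX:150547167-150547416, that of Bpgm is chr6:34476106-34476355 and that of Hba-a1 is chr11:32283422-32283671, all on the plus strand.
Alas2: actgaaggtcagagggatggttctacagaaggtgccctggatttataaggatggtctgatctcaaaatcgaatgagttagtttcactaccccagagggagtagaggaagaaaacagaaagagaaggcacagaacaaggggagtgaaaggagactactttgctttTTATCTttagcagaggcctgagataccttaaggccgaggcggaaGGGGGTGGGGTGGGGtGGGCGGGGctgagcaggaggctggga
Bpgm: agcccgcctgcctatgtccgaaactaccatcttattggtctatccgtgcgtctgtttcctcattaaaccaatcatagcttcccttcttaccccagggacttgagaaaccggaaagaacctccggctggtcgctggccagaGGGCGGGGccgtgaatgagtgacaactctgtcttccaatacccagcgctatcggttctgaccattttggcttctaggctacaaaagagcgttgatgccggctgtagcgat
Hba-a1: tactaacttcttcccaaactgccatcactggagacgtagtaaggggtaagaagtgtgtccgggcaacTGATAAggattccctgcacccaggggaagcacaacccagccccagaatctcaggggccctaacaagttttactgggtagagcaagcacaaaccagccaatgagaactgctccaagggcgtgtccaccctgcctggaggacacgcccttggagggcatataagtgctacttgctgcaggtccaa
The Alas2 window held 1 match to AGATAA, on the opposite strand 86 to 81 bases before the start, and 4 overlapping or adjacent matches to CCNCNCCC within 42 bases of it. The Bpgm window held 1 match to CCNCNCCC and none to either GATA form. The Hba-a1 window held 1 match to TGATAA and none to AGATAA or CCNCNCCC. Windows of Alas1, the relative of Alas2 found in all tissues, were searched too but are not printed. They held 1 and 2 matches to CCNCNCCC and none to either GATA form. Among 32851 promoter windows of the same length, 9.99% held AGATAA, 7.94% held TGATAA and 45.9% held CCNCNCCC. A match is a description of the letters and does not show binding.

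The Alas2 signal, on the authors' linear scale, was 12702 and 10433.2 in wild-type pools 1 and 2 and 20706.3 and 22167.1 in heterozygous pools 1 and 2. Both heterozygous pools lay above both wild-type pools, and the lower heterozygous pool was 1.63 times the higher wild-type pool. The signal rose 1.86-fold in the heterozygous pools, from 11567.6 ± 1604 to 21436.7 ± 1033 (SD, n = 2). On the log2 scale the change was 0.90 (SE 0.15, 95% interval 0.57 to 1.23), with a limma adjusted p of 0.00167.

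The Slc4a1 signal was 530.2 and 716.8 in the wild-type pools, against 1175.2 and 1246.9 in the heterozygous ones. It was the dimmest of the 3: 39.6% of probe sets had a higher mean, against 2.37% for Alas2 and 4.89% for Bpgm. The genotypes did not overlap here either, and the wild-type pools differed from each other by 1.35-fold against 1.06-fold between the heterozygous pools. The mean rose 1.96-fold, from 623.5 ± 132 to 1211.1 ± 50.7 (SD, n = 2), a log2 change of 0.97 (SE 0.23) with a limma adjusted p of 0.00947. It no longer passed when wild-type pool 1 (log2 change 0.76) was left out, nor on leaving out heterozygous pool 1 (1.02) or pool 2 (0.93).

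The Bpgm signal was 7788.9 and 6274.8 in the wild-type pools, against 10571 and 8964.9 in the heterozygous ones. Pool 1 was the higher one in either genotype, and the lower heterozygous pool was 1.15 times the higher wild-type pool. The mean rose 1.39-fold, from 7031.9 ± 1071 to 9768 ± 1136 (SD, n = 2), a log2 change of 0.48 (SE 0.16) with a limma adjusted p of 0.0451. It no longer passed on leaving out wild-type pool 2 (0.32) or either heterozygous pool (0.36 without pool 1 and 0.60 without pool 2), under quantile normalization (0.37), under cyclic loess (0.31) and with eBayes without a trend (0.48).

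**Figure D1:**
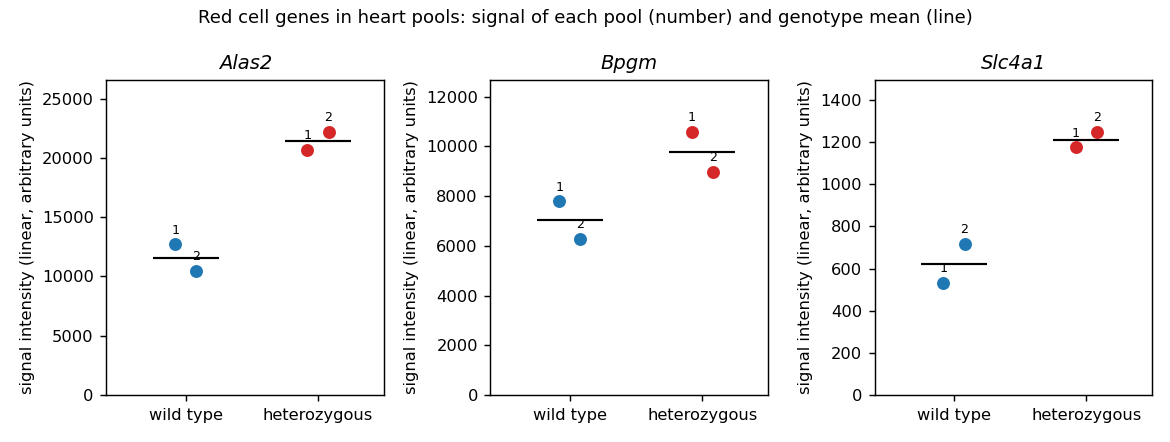
Signal intensity of Alas2, Bpgm and Slc4a1 (linear scale, arbitrary units, axes from 0) in each pool of 5 hearts, with the pool number beside each point and a line at the genotype mean. In all 3 panels both heterozygous pools lie above both wild-type pools, with the narrowest gap for Bpgm.

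All 3 genes passed as higher, where 17.9% of the 7453 tested probe sets passed as higher and 20.4% as lower (38.3% in either direction). All 3 were also higher in both heterozygous pools than in both wild-type pools, as were 34.6% of tested probe sets, while in 35.5% both heterozygous pools were lower. The genes were proposed with results of these data in view, and 3 genes are too few to set them apart from other genes by such shares. A log2 change above that of Alas2 was seen in 7.58% of tested probe sets, above that of Slc4a1 in 5.93% and above that of Bpgm in 22.6%. Over all tested probe sets the median log2 change was 0.00. With 2 pools a side, the smallest two-sided p that an exact permutation test allows is 0.333. The 3 calls ended when dim probe sets were also tested, with limma adjusted p of 0.0553 for Alas2, 0.186 for Bpgm and 0.0881 for Slc4a1.

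The changes of the 3 genes could not be ordered. The log2 change of Alas2 exceeded that of Bpgm by 0.42 (95% interval -0.08 to 0.91), and that of Slc4a1 exceeded that of Bpgm by 0.50 (-0.14 to 1.13). Alas2 and Slc4a1 differed by -0.08 (-0.69 to 0.53). These intervals join the standard errors of 2 probe sets as if independent and are not adjusted for the 14 pairs of genes compared, which were chosen after the values were seen. Over the 4 pools, the centred log2 profile of Alas2 differed by a root mean square of 0.24 from that of Bpgm and 0.26 from that of Slc4a1, against 0.38 between Bpgm and Slc4a1.

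The globins are the most abundant red cell transcripts, and neither of the 2 tested globin genes passed. Hba-a1, the alpha chain, gave 130872.8 and 117516 in the wild-type pools, against 138930.8 and 153184 in the heterozygous ones. Hbb-b2, a beta chain, gave 75070 and 73084.1 in the wild-type pools, against 86643.5 and 88191.7 in the heterozygous ones. The heterozygous pools lay above the wild-type pools for both genes, but the log2 changes of 0.23 (SE 0.13, limma adjusted p = 0.174) and 0.24 (SE 0.12, limma adjusted p = 0.142) did not pass. Both turned negative under quantile normalization (-0.03 for Hba-a1 and -0.06 for Hbb-b2) and cyclic loess (-0.22 and -0.17). Their probe sets were among the brightest on the arrays (rank 2 for Hba-a1 and 12 for Hbb-b2 of 12422 by mean signal), and whether such bright probe sets still respond in proportion was not tested. Probes for one globin can detect its near-identical copies.

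The log2 changes were set against those of the globins, in pairs chosen after the values were seen and with the limit that the response of such bright probe sets was not tested. On the deposited signals the log2 change of Alas2 exceeded that of Hba-a1 by 0.66 (95% interval 0.23 to 1.10) and that of Hbb-b2 by 0.66 (0.23 to 1.08). Slc4a1 exceeded them by 0.74 (0.15 to 1.33) and 0.73 (0.16 to 1.31). For Bpgm the differences of 0.24 (-0.22 to 0.71) and 0.24 (-0.22 to 0.69) had intervals that included 0. The embryonic globins Hbb-bh1, Hbb-y and Hba-x were too dim to be tested, with signals of 98 to 185.1, 99.5 to 273.1 and 167.6 to 297.6 on their brightest probe sets.

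Each of the 3 genes has relatives that work outside red cells, and of the 6 tested, Alas1, Slc4a3 and Pgam2 rose. Alas1, the form of the haem-starting enzyme found in all tissues, gave 9451.6 and 7759.9 in the wild-type pools, against 14314.2 and 13173.7 in the heterozygous ones. It rose 1.60-fold (a log2 change of 0.68, SE 0.15, limma adjusted p = 0.00723), which no longer passed on leaving out either heterozygous pool (0.62 without pool 1 and 0.74 without pool 2). The change of Alas2 exceeded that of Alas1 by 0.21, with an interval of -0.26 to 0.69 that included 0.

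Slc4a3, the chloride-bicarbonate exchanger of heart and brain, rose from 8828.3 and 6806.1 in the wild-type pools to 16529.5 and 17734.3 in the heterozygous pools (2.21-fold, log2 change 1.14, SE 0.16, limma adjusted p = 8.0e-04). Its change exceeded that of Slc4a1 by 0.17 (95% interval -0.46 to 0.80). Slc4a2, a widely expressed exchanger, had a log2 change of -0.03 (limma adjusted p = 0.924) that turned to 0.15 with arrays shifted to a common median, 0.11 under quantile normalization and 0.03 under cyclic loess. The change of Slc4a1 exceeded that of Slc4a2 by 1.00 (0.34 to 1.66). Slc4a4, a sodium-bicarbonate cotransporter, had a log2 change of 0.88 (limma adjusted p = 0.111).

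Pgam2, the muscle form of the glycolytic phosphoglycerate mutase to which Bpgm is related, rose from 12343.2 and 11226.1 to 24232.4 and 21877.9 (1.96-fold, log2 change 0.97, SE 0.13, limma adjusted p = 8.0e-04). Its change exceeded that of Bpgm by 0.49 (95% interval 0.01 to 0.97). Pgam1, the widespread form, had a log2 change of -0.13 (limma adjusted p = 0.604) that turned to 0.05 with arrays shifted to a common median, and the change of Bpgm exceeded it by 0.60 (0.07 to 1.14). None of the 6 relatives fell, and 3 did not pass. With dim probe sets tested as well, Pgam2 passed (limma adjusted p = 0.0357), whereas Alas1 (limma adjusted p = 0.0799) and Slc4a3 (limma adjusted p = 0.0529) did not.

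Other erythroid genes were grouped into 6 lists of 67 genes, of which 41 were measured and 26 tested. Of the 26, 8 rose, 2 fell and 16 did not pass. Their median log2 change was 0.23, against 0.00 over all tested probe sets. With arrays centred on the heart muscle markers, which lowers every gene alike, the same 26 genes gave 1 higher and 14 lower. Rhd was the 1 gene of these 10 calls that passed when dim probe sets were tested as well, and 2 of the 10 passed without heterozygous pool 1 (Hk1 and Rhd) or without heterozygous pool 2 (Abcb10 and Rhd). With eBayes without a trend 5 of the 10 passed (Abcb10, Hk1, Ireb2, Lmo2 and Rhd). The share that rose is set against 17.9% of all tested probe sets. Pklr, 1 of the 8, was tested only through its heterozygous pools. Most of these genes are not specific to red cells, and the brightest probe set stands for every gene.

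**Figure D2:**
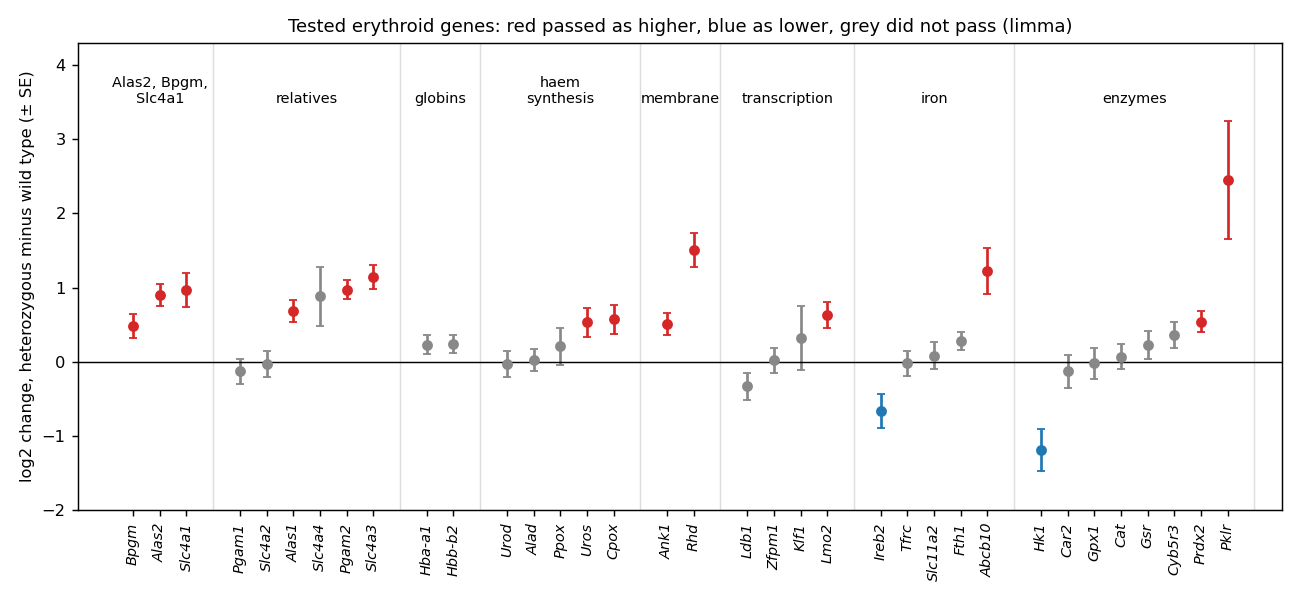
Log2 change (heterozygous minus wild type, ± SE from limma) of every tested gene of the erythroid lists and of the relatives of Alas2, Bpgm and Slc4a1, on its brightest probe set. Red genes passed as higher, blue genes as lower and grey genes did not pass. Alas2, Slc4a1 and Rhd lie near or above 0.90, as do Pklr, Abcb10 and the relatives Slc4a3, Pgam2 and Slc4a4. The globins Hba-a1 and Hbb-b2 lie near 0.23.

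Among red cell membrane and skeleton genes, 5 of 14 were measured, 2 were tested and both rose (median log2 change 1.01). Rhd, the mouse Rh blood group gene, gave 401.4 and 395.5 in the wild-type pools, against 1121.7 and 1152.9 in the heterozygous ones. It rose 2.85-fold (log2 change 1.51, SE 0.23, limma adjusted p = 0.00111) and passed in all 14 other ways of analysis that tested it. Ank1, which encodes the ankyrin that ties the exchanger encoded by Slc4a1 to spectrin, rose on 3 probe sets by 1.42-fold, 1.53-fold and 3.52-fold. A short form of Ank1 is made in muscle. The smallest of its calls, on the brightest probe set (log2 change 0.51), ended under cyclic loess (0.39) and on leaving out wild-type pool 2 (0.42) or either heterozygous pool (0.55 without pool 1 and 0.47 without pool 2). The untested Epb42, Dmtn and Rhag had signals of at most 384.6 in any pool. On their brightest probe sets the genotypes overlapped, with log2 changes of 0.50, 0.26 and -0.07. On a dimmer Epb42 probe set both heterozygous pools (153.1 and 71.5) lay above both wild-type pools (67.2 and 38.3).

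Of the later enzymes of haem synthesis, 6 of 7 were measured and 5 tested, of which 2 rose (median log2 change 0.21). Cpox, of coproporphyrinogen oxidation, rose from 763.2 and 876.2 to 1227.3 and 1194.7 (log2 change 0.57, SE 0.20, limma adjusted p = 0.0476). Uros, which closes the porphyrin ring, rose from 1447.8 and 1233.7 to 1766.4 and 2109.5 (log2 change 0.53, SE 0.19, limma adjusted p = 0.0498). Both calls ended when any 1 of the 4 pools was left out, with log2 changes of 0.47 to 0.67 for Cpox and 0.40 to 0.66 for Uros. Ppox, of the step before iron is inserted, had a log2 change of 0.21 (limma adjusted p = 0.550), and Urod had one of -0.03 (limma adjusted p = 0.914) that turned to 0.15 with arrays shifted to a common median. A second Cpox probe set had a log2 change of 0.25 (limma adjusted p = 0.518).

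Regulators of red cell formation were mostly dim. Of 11 genes, 10 were measured and 4 tested, and 1 rose (median log2 change 0.17). Lmo2, a bridging protein of the GATA1 complex that is also made in endothelium, rose from 1572.1 and 1303.2 to 2238.9 and 2180.3 (log2 change 0.63, SE 0.18, limma adjusted p = 0.0212). It no longer passed on leaving out wild-type pool 2 (0.49) or either heterozygous pool (0.61 without pool 1 and 0.65 without pool 2), and a second probe set had a log2 change of 0.18 (limma adjusted p = 0.479). Klf1, the main activator of adult beta globin, had unequal wild-type pools (559.6 and 234.8, against 446.5 and 456.2 in the heterozygous pools), and its log2 change of 0.32 (limma adjusted p = 0.602) turned to -0.31 without wild-type pool 2. Ldb1 had a log2 change of -0.33 (limma adjusted p = 0.179) and Zfpm1 one of 0.02 (limma adjusted p = 0.938).

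Gata1 itself was not tested, with signals of 147.8, 215.8, 282.4 and 274.9 over wild-type pools 1 and 2 and heterozygous pools 1 and 2. On a dimmer Gata1 probe set the genotypes overlapped, with 95.4 and 50.5 in the wild-type pools against 55.5 and 126.5 in the heterozygous ones. The erythropoietin receptor gene Epor, also untested and named after its values were seen, gave 73.1 and 92.8 in the wild-type pools, against 263.3 and 623.8 in the heterozygous ones. Hemgn, a nuclear protein of blood precursors named in the same way, lay the other way round, with 142.6 and 211.2 against 50.7 and 48.3.

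Genes of iron supply moved both ways: of 12, 6 were measured and 5 tested, of which 1 rose and 1 fell (median log2 change 0.08). Abcb10, a mitochondrial transporter needed for haem synthesis, gave 349.2 and 356.6 in the wild-type pools, against 1054 and 643.2 in the heterozygous ones. It rose 2.33-fold (log2 change 1.22, SE 0.31, limma adjusted p = 0.0133), a call that ended without heterozygous pool 1 (0.87). Ireb2, an iron-sensing protein that represses translation of the Alas2 messenger, fell from 845.7 and 1057.1 to 593.9 and 606 (log2 change -0.66, SE 0.23, limma adjusted p = 0.0475). That call ended when any 1 pool was left out (-0.82 to -0.50), with arrays shifted to a common median (-0.48), under quantile normalization (-0.51) and under cyclic loess (-0.55). Fth1, the ferritin heavy chain, had a log2 change of 0.28 (limma adjusted p = 0.0973) on its brightest probe set that turned to -0.09 under cyclic loess. A dimmer Fth1 probe set rose (0.72, limma adjusted p = 0.00555). Slc11a2, an iron importer, had one of 0.08 (limma adjusted p = 0.757) on its brightest probe set, while the other probe set rose (0.99, limma adjusted p = 0.0309).

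Of 13 enzymes of red cells, 9 were measured and 8 tested, with 2 higher and 1 lower (median log2 change 0.15). Prdx2, an abundant antioxidant protein of red cells, rose from 21732.4 and 26059.6 to 33768.3 and 35312.9 (log2 change 0.54, SE 0.14, limma adjusted p = 0.0147). The call ended under quantile normalization (0.34), under cyclic loess (0.24) and on leaving out wild-type pool 1 (0.41) or either heterozygous pool (0.57 without pool 1 and 0.50 without pool 2). A dimmer Prdx2 probe set did not pass (0.51, limma adjusted p = 0.269), and another lay under the floor in all 4 pools. Hk1, the hexokinase of red cells and many other tissues, fell from 40038.9 and 36621.9 to 24220 and 11667.6 (log2 change -1.19, SE 0.28, limma adjusted p = 0.0103). Its heterozygous pools differed from each other, and the call ended without heterozygous pool 2 (-0.66). Pklr, pyruvate kinase of liver and red cells, had a log2 change of 2.45 (SE 0.79, limma adjusted p = 0.0379) that rested on wild-type signals of 58.4 and 488.2. The dimmer of its 2 probe sets was not tested, with signals of 33.9 to 47.8. The brighter was tested only through its heterozygous pools (mean 925.6), as its wild-type mean of 273.3 lay among those of untested genes. Leaving out wild-type pool 1 gave 0.92 and leaving out wild-type pool 2 gave 3.98. Pklr no longer passed on leaving out either heterozygous pool (2.52 and 2.39), with robust eBayes (limma adjusted p = 0.140) or with eBayes without a trend (limma adjusted p = 0.0861). Cyb5r3 had a log2 change of 0.36 (limma adjusted p = 0.134). Car1, a carbonic anhydrase of red cells, was not tested, with signals of 47.5 to 80.9. Car2, another carbonic anhydrase of the list, had a log2 change of -0.13 (limma adjusted p = 0.678).

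Other cells that blood or the dissection could add were followed with marker lists. Platelet markers were near the low end: 5 of 9 were measured, none was tested, and their summed signal was 487.1 to 627.9 in the wild-type pools and 544 to 570.2 in the heterozygous pools. Of 15 neutrophil markers 6 were tested and 1 fell, with sums of 5375.4 to 6443.9 and 5082.6 to 5171.1 (median log2 change 0.02). That marker, S100a8, a calcium-binding protein of neutrophils, went from 663 and 608.9 to 192.6 and 202.6 (log2 change -1.69, SE 0.34, limma adjusted p = 0.00505). It was tested only through its wild-type pools, as its heterozygous mean of 197.6 lay among those of untested genes. Ltf and Csf3r had log2 changes of 0.29 (limma adjusted p = 0.355) and -0.33 (limma adjusted p = 0.270). Of 9 tested monocyte and macrophage markers, Mrc1 rose (0.70, limma adjusted p = 0.0332), Cd68 fell (-0.65, limma adjusted p = 0.0200) and 7 did not pass, among them Cd14 (0.47, limma adjusted p = 0.0941), with sums of 24479 to 26006.5 and 24700.3 to 24972.5.

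All 18 tested lymphocyte and thymus markers fell, with a median log2 change of -2.70 and sums of 157915.6 to 161558.4 in the wild-type pools and 21197.6 to 22716.5 in the heterozygous pools. Cd8b1 (-5.16), Cd8a (-3.51) and Rag1 (-3.08; 0.61 on a dimmer probe set, limma adjusted p = 0.0650) had the smallest p. All 12 tested cell division genes fell as well, with a median of -2.56 (Mki67 -3.40, Rrm2 -3.32, Ccnb2 -2.37). Some genes of both lists had heterozygous signals as low as those of untested genes and were tested through the wild-type pools. Alas2, Bpgm and Slc4a1 moved the opposite way to both lists. The part of these markers in the changes of Alas2, Bpgm and Slc4a1 was not tested.

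Heart muscle and endothelial markers moved in the same direction as Alas2, Bpgm and Slc4a1. All 13 markers of heart muscle, the labelled tissue, were measured and tested, and 12 rose (median log2 change 0.65, or 1.57-fold), with summed signals of 604495.6 to 668593.7 in the wild-type pools and 955147.2 to 980603.5 in the heterozygous pools. Ldb3 (1.88), Mybpc3 (1.07) and Ckm (0.95 on its brighter probe set) had the smallest p, although a dimmer Ckm probe set had a log2 change of -0.08 (limma adjusted p = 0.854). Of 9 endothelial markers 8 rose (median 0.96), with sums of 17422.5 to 18897.1 and 32785.6 to 37209.8, and Nos3 (2.59), Cdh5 (1.12) and Flt1 (1.21) had the smallest p. Nos3 was tested only through its heterozygous pools (mean 965.5), as its wild-type mean of 160.8 lay among those of untested genes. The 12 heart muscle calls became 9 under quantile normalization (median 0.37), 4 under cyclic loess (median 0.25), 6 without heterozygous pool 1, 4 without heterozygous pool 2 and 2 with dim probe sets tested as well. The 8 endothelial calls became 4 without heterozygous pool 1 and 4 with dim probe sets tested as well. Of the 13 heart muscle markers, 3 had a larger log2 change than Alas2, 2 a larger one than Slc4a1 and 9 a larger one than Bpgm.

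**Figure D3:**
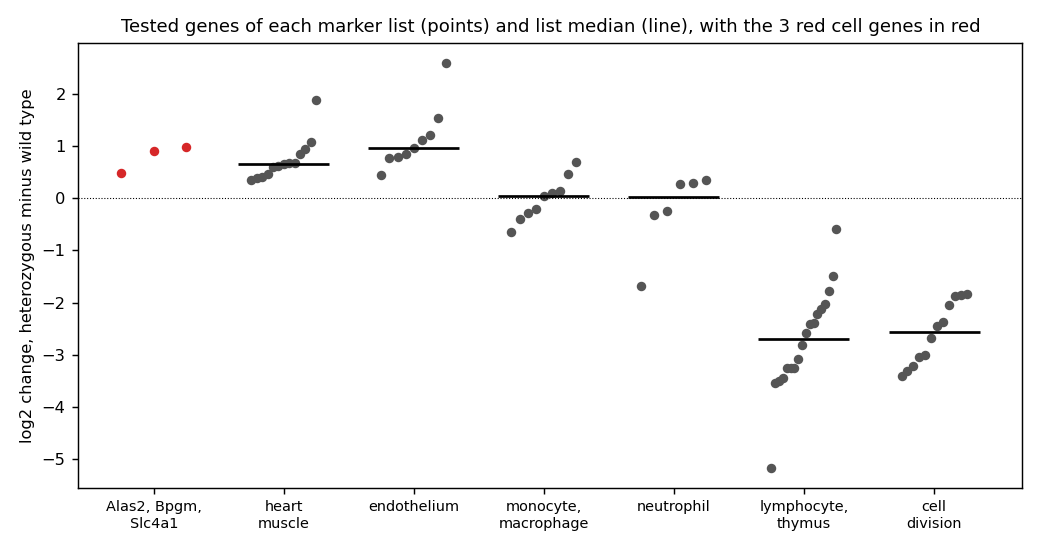
Log2 change (heterozygous minus wild type) of Alas2, Bpgm and Slc4a1 in red and of every tested gene of 6 other lists in grey, with a line at each list's median. The 3 red cell genes lie in the range of the heart muscle markers (median 0.65) and endothelial markers (median 0.96), while lymphocyte and thymus markers (median -2.70) and cell division genes (median -2.56) are lower.

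The deposited signals are relative to the total of each array, so the scale decides how a change reads. A shift of every array to a common median moved the change of the median tested probe set to 0.18, raised the share of higher calls from 46.8% to 62.5%, and gave Alas2, Bpgm and Slc4a1 log2 changes of 1.08, 0.66 and 1.15. With arrays centred on the heart muscle markers, a scale chosen after the data were seen, the median of all tested probe sets was -0.73. On that scale the log2 changes were 0.16 for Alas2 (SE 0.13, limma adjusted p = 0.296), -0.26 for Bpgm (SE 0.16, limma adjusted p = 0.184) and 0.24 for Slc4a1 (SE 0.25, limma adjusted p = 0.413). This centring takes nearly the same amount from every change, so a positive change smaller than that amount turns negative by construction. That of Bpgm did so, and none of the 3 passed. The globins were lower on it, with -0.50 for Hba-a1 and -0.49 for Hbb-b2, while Rhd remained higher at 0.78.

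**Figure D4:**
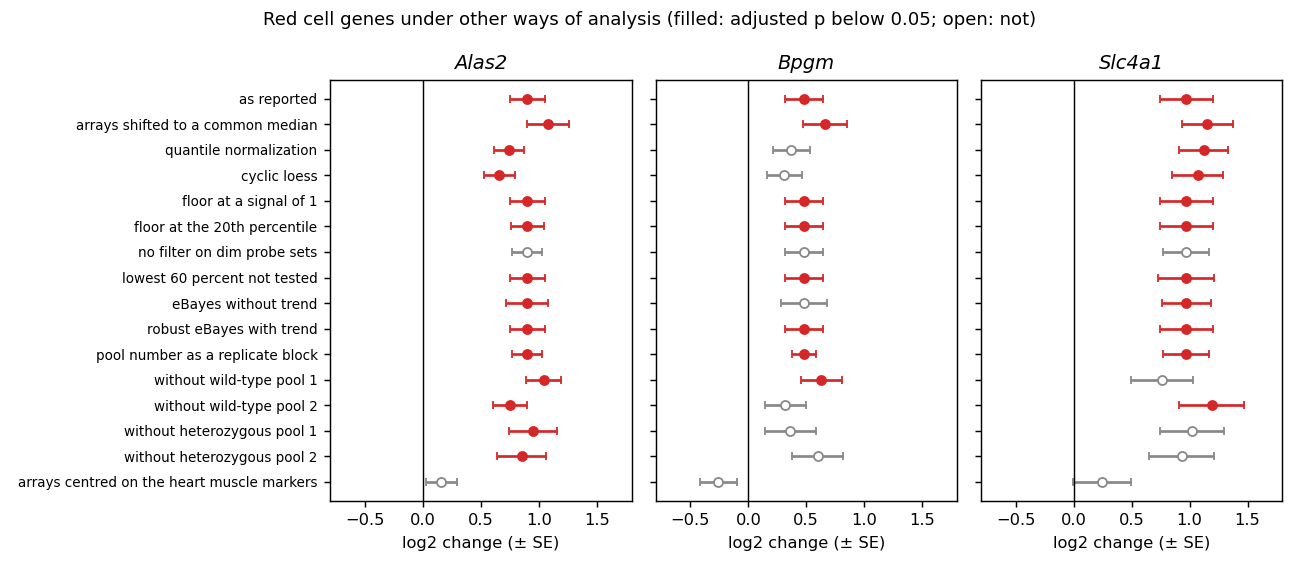
Log2 change (heterozygous minus wild type, ± SE) of Alas2, Bpgm and Slc4a1 as reported and in 15 other ways of analysis, filled where limma's adjusted p was below 0.05. Alas2 stays filled in 13 of the 15, Slc4a1 in 10 and Bpgm in 7, and all 3 move towards or past 0 with arrays centred on the heart muscle markers.

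The genes whose centred log2 profile over the 4 pools was nearest to each of the 3 were not red cell genes of the lists. For Alas2 they were Tubb2a, a tubulin (root mean square difference 0.0094), Tnks1bp1 (0.021) and Vegfb, an endothelial growth factor gene (0.028). For Bpgm they were Slu7 (0.011), Uqcc2, an assembly factor of respiratory complexes (0.013), and Naxe (0.022). For Slc4a1 they were Ank3, another ankyrin (0.027), Ctdsp2 (0.034) and Ntsr2 (0.041). With 4 pools many genes share a profile, and nothing about shared function is read from it.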

How the data were processed

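The authors deposited 1 signal intensity on a linear scale for each probe set of each array. How probes were summarised is not stated in the sources used here. Trimmed means of the arrays (2% off each end) were within 1.01 times of each other, so the intensities were used as deposited. The 66 control probe sets, which had no value in heterozygous pool 2, were removed. A floor at the 10th percentile (36.25) was set before log2 was taken, and the 40% of the other 12422 probe sets with the lowest mean were not tested, which left 7453. That mean was taken over all 4 arrays, so a probe set dim in 1 genotype could be tested through the other. Genotype was fitted with limma 3.58.1 (lmFit, eBayes with a trend) in R 4.3.3, with two-sided p-values adjusted by Benjamini-Hochberg over all 7453 at a threshold of 0.05. Simulated data, with changes of known size and noise drawn from limma's moderated SDs, were used to test this fit. A first simulation, with noise from each probe set's own unmoderated SD, recovered too few of the largest changes to meet the limit set for it, and the noise was changed for that reason. The later simulation draws its noise from the SDs that the fit itself estimates, so it checks how the fit was coded and does not show how many real changes it finds.

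Log2 changes are heterozygous minus wild type, and the brightest probe set stands for a gene in list counts. Of 12488 probe sets, 10855 had 1 symbol, 396 several and 1237 none. Named are Alas2, Bpgm, Slc4a1, the measured globins and relatives, the up to 4 genes of smallest p in each erythroid list and 3 in each marker list, and the 3 nearest profiles of each gene. Outside this rule, the tested Car2 and the untested Gata1, Epor, Hemgn, Car1, Epb42, Dmtn and Rhag were named after their values were seen. Genes and lists were chosen with earlier results of these data known. Other scalings, floors, filters, moderation, a replicate block and leaving out each pool were tried. Precision is limited by the number of arrays.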

Additional observations from a re-analysis of the deposited data

How the results depend on the processing

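The log2 changes of Alas2 (0.90), Bpgm (0.48) and Slc4a1 (0.97) kept their sign in 15 other ways of analysis except for Bpgm with arrays centred on the heart muscle markers (-0.26). The other floors, filters, moderation and the replicate block leave these log2 changes as they are. Only the other scalings and leaving out a pool could change a sign. Their range was 0.16 to 1.08 for Alas2, -0.26 to 0.66 for Bpgm and 0.24 to 1.19 for Slc4a1. The calls were lost when dim probe sets were tested too (unchanged log2 changes of 0.90, 0.48 and 0.97) and with arrays centred on the heart muscle markers (0.16, -0.26 and 0.24). The call of Bpgm also ended under quantile normalization (0.37), cyclic loess (0.31) and eBayes without a trend (0.48). Testing dim probe sets changed both the number of tests and the variance estimates. The SE of Alas2 went from 0.15 to 0.13, and which of the 2 ended the calls was not tested. Leaving out 1 pool gave 0.75 to 1.04 for Alas2, 0.32 to 0.63 for Bpgm and 0.76 to 1.19 for Slc4a1.

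The 2856 calls (1337 higher, 1519 lower) became 1206 without the filter (482 higher, 724 lower), 4513 with arrays centred on the heart muscle markers (139 higher, 4374 lower), and 1707 to 2289 with 1 pool left out (630 to 1125 higher, 1077 to 1164 lower). The pools share only a number: the differences between pools 1 and 2 correlated at 0.16 between the genotypes. With the pool number as a replicate block, 3035 probe sets were called and Alas2 (0.90), Bpgm (0.48) and Slc4a1 (0.97) passed, whereas Cpox, Uros and Ireb2 did not. Of the 10 calls in the erythroid lists, 1 (Rhd) passed with dim probe sets tested too, 5 with eBayes without a trend, 3 with heart muscle centring (where the 26 tested genes gave 1 higher and 14 lower) and 2 to 6 with 1 pool left out.

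Centring on the heart muscle markers lowers every gene alike by construction and turned Alas1 (-0.05), Ank1 (-0.22), Cd14 (-0.26), Cpox (-0.17), Cyb5r3 (-0.37), Fth1 (-0.45), Hba-a1 (-0.50), Hbb-b2 (-0.49), Klf1 (-0.42), Lmo2 (-0.11), Ltf (-0.44), Mrc1 (-0.03), Naxe (-0.26), Ppox (-0.52), Prdx2 (-0.20), Slc11a2 (-0.65), Slu7 (-0.26), Uqcc2 (-0.23), Uros (-0.20) and Zfpm1 (-0.71). A common median turned Pgam1 (0.05), Slc4a2 (0.15) and Urod (0.15), quantile normalization turned Hba-a1 (-0.03), Hbb-b2 (-0.06), Slc4a2 (0.11) and Urod (0.03), and cyclic loess turned Fth1 (-0.09), Hba-a1 (-0.22), Hbb-b2 (-0.17), Slc4a2 (0.03) and Zfpm1 (-0.01). Leaving out 1 pool turned Klf1 (range -0.31 to 0.94, negative without wild-type pool 2), Zfpm1 (-0.13 to 0.17, also wild-type pool 2), Slc4a2 (-0.12 to 0.07, positive without wild-type pool 1 or heterozygous pool 2), Pgam1 (-0.32 to 0.07, positive without heterozygous pool 1), Slc11a2 (-0.02 to 0.18, negative without heterozygous pool 2) and Urod (-0.18 to 0.13, positive without heterozygous pool 2). The cause was not tested.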
